A study of Mus musculus with 6 samples.

Results

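Heat shock proteins and J-domain proteins make up the main protein-folding machinery of the cell. Genes were taken by symbol, beginning with Hsp or Dnaj and leaving out Hspg2 and Hspbap1, from probe sets that the platform annotation gives to a single gene. Each gene was read from its probe set of highest mean over the 6 arrays. This gave 67 genes of 17097 measured, with 148 probe sets in all. By the known location of their proteins 33 were placed in the cytosol, 13 in the endoplasmic reticulum (ER), 9 in mitochondria and 12 elsewhere (nucleus, vesicles, cilia or not settled).

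The arrays hold total RNA from the remaining liver of C57Bl/6 mice, in the early phase of regrowth at 12 h after a partial hepatectomy in which 70% of the organ was cut away. There were 3 DeltaKlf6 animals, in which Klf6, a zinc-finger transcription factor, was deleted in hepatocytes, and 3 wildtype animals. Both groups had the same operation, so no unoperated liver stands beside them, and the labels give neither the age of the animals nor the Cre driver. The tissue is whole liver, in which fewer cells of a type and less RNA per cell cannot be told apart.

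HSP70 proteins bind exposed stretches of unfolded proteins in a cycle driven by ATP. J-domain proteins deliver the clients and start ATP hydrolysis, nucleotide exchange factors such as the HSP110 proteins reset the cycle, and HSP90 and the small heat shock proteins act on other folding states. In the cytosol the inducible members answer to heat shock factors, while those of the ER answer to the unfolded protein response. Hepatocytes secrete plasma proteins in bulk and so carry a large set of ER chaperones.

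The labels were checked first. In the array labelled DeltaKlf6 1 the 3 Klf6 probe sets lay 2.13, 1.82 and 2.12 log2 units above the wildtype mean. This goes against the genotype on the label. They lay at -0.87, 0.05 and -0.30 from that mean in DeltaKlf6 2 and at -0.86, -0.32 and -1.75 in DeltaKlf6 3. By group mean no Klf6 probe set was lower in DeltaKlf6 (3.82, 4.58 and 4.93, against 3.68, 4.06 and 4.91 in wildtype). Whether these probe sets lie in the deleted part was not checked. Each direction below is therefore between libraries as labelled, and DeltaKlf6 1, 2 and 3 are names from the labels. Hepatocyte markers were high in all arrays (mean log2 value of 6 genes 13.19, 13.14 and 12.86 in DeltaKlf6 and 12.95 to 13.05 in wildtype). The Gapdh control, a measure of RNA integrity, had a 3'-end signal above its 5'-end signal by 3.47, 3.45 and 4.83 in DeltaKlf6 and 4.06 to 4.43 in wildtype. The upper quartile of all values was 5.53, 5.63 and 5.08 in DeltaKlf6 and 5.50 to 5.51 in wildtype. Endothelial markers (6 genes) averaged 6.61, 6.56 and 5.83 in DeltaKlf6 and 6.30 to 6.61 in wildtype. The library labelled DeltaKlf6 3 had the lowest hepatocyte and endothelial means and upper quartile and the highest Gapdh difference and hybridization controls of the 6. Its actin difference lay inside the wildtype range. DeltaKlf6 1 and 2 lay on the other side of the wildtype range for hepatocyte markers and Gapdh, and below that range for actin.

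List means of 2 further cell types separated the groups, though of their single genes only the lymphocyte marker Cd3g did. The erythroid genes Hba-a1 and Alas2 both overlapped between the groups. Erythroid markers (2 of 4 listed genes measured) averaged 10.01, 9.95 and 9.74 in DeltaKlf6 and 9.55, 9.57 and 9.68 in wildtype, and lymphocyte markers (5 genes, 3 under the median probe set) averaged 3.24 to 3.38 in DeltaKlf6 and 3.44 to 3.61 in wildtype. Neutrophil markers (4 genes) averaged 5.51, 4.87 and 5.71 in DeltaKlf6 and 5.02, 5.70 and 5.90 in wildtype, with overlap. Means of the Kupffer cell (7.32 to 8.11 in DeltaKlf6, 7.33 to 7.56 in wildtype), stellate and smooth muscle (4.89 to 5.68 in DeltaKlf6, 5.07 to 5.38 in wildtype), striated muscle, cholangiocyte and acinar lists overlapped as well. The part of these markers and of RNA integrity in the results below was not tested.

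None of the 67 chaperone genes passed adjustment between DeltaKlf6 and wildtype liver. By limma 0 passed an adjusted p of 0.05, as did 0 of all genes (0%), and their adjusted p-values were 0.992 or higher. At an unadjusted p under 0.05 there were 2 members, 1 lower (Dnajc16) and 1 higher (Dnajb13), where 3.69% of all genes met that limit (2.48% lower, 1.21% higher). The groups of 3 did not overlap for 5 members (9.32% of all genes). Of these 2 were lower, Dnaja2 and Dnajc16 (5.91% of all genes), and 3 were higher, Hspbp1, Dnajc4 and Dnajb13 (3.41% of all genes). Both counts are close to what all genes gave. By group mean 39 members were lower and 28 higher, with a median log2 difference (DeltaKlf6 minus wildtype) of -0.10, against -0.01 over all genes. Of all genes 8819 were lower and 8278 higher.

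The count at an unadjusted p under 0.05 turned on single libraries. Without the library labelled DeltaKlf6 3 it was 8 members (Dnaja3, Dnajb12, Dnajb13, Dnajc16, Dnajc7, Hsp90aa1, Hspa14 and Hspa1b), where 9.04% of all genes met the limit. Without DeltaKlf6 2 it was 4 members (6.81% of all genes), and without wildtype 1 it was 0 (2.27%). No member passed adjustment in any of these fits.

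**Figure D1:**
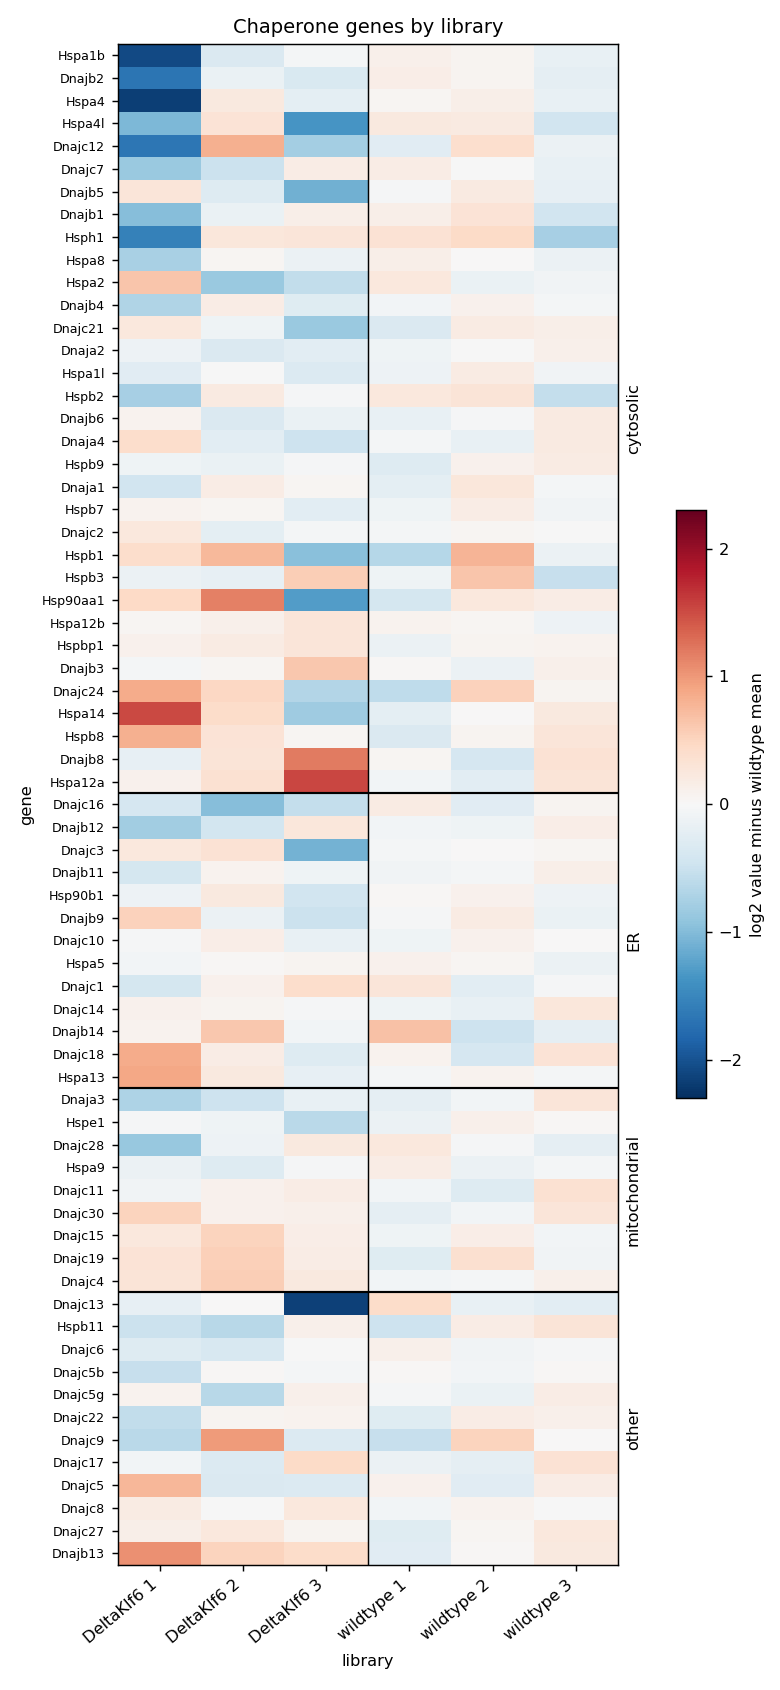
Log2 value of each of the 67 chaperone genes minus its wildtype mean (colour, red higher and blue lower) in the 3 DeltaKlf6 and 3 wildtype libraries, with genes grouped by compartment and sorted by the group difference. The darkest blue cells of the cytosolic block lie in the column of DeltaKlf6 1, and the wildtype columns are paler.

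The DeltaKlf6 livers differed from each other more than the wildtype livers did. The SD was larger in DeltaKlf6 than in wildtype for 54 of 67 members (80.6%), against 68.1% of all genes. The median SD of a member was 0.40 in DeltaKlf6 and 0.22 in wildtype, and over all genes it was 0.35 in DeltaKlf6 and 0.24 in wildtype. Among cytosolic members the medians were 0.53 in DeltaKlf6 and 0.22 in wildtype, with a larger SD in DeltaKlf6 for 29 of 33. ER members had 0.36 in DeltaKlf6 and 0.13 in wildtype (larger in DeltaKlf6 for 10 of 13), and members elsewhere had 0.37 in DeltaKlf6 and 0.24 in wildtype (10 of 12). Mitochondrial members had 0.20 in DeltaKlf6 and 0.23 in wildtype (5 of 9). These are descriptions of 3 animals a group, and the difference in spread was not tested.

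**Figure D2:**
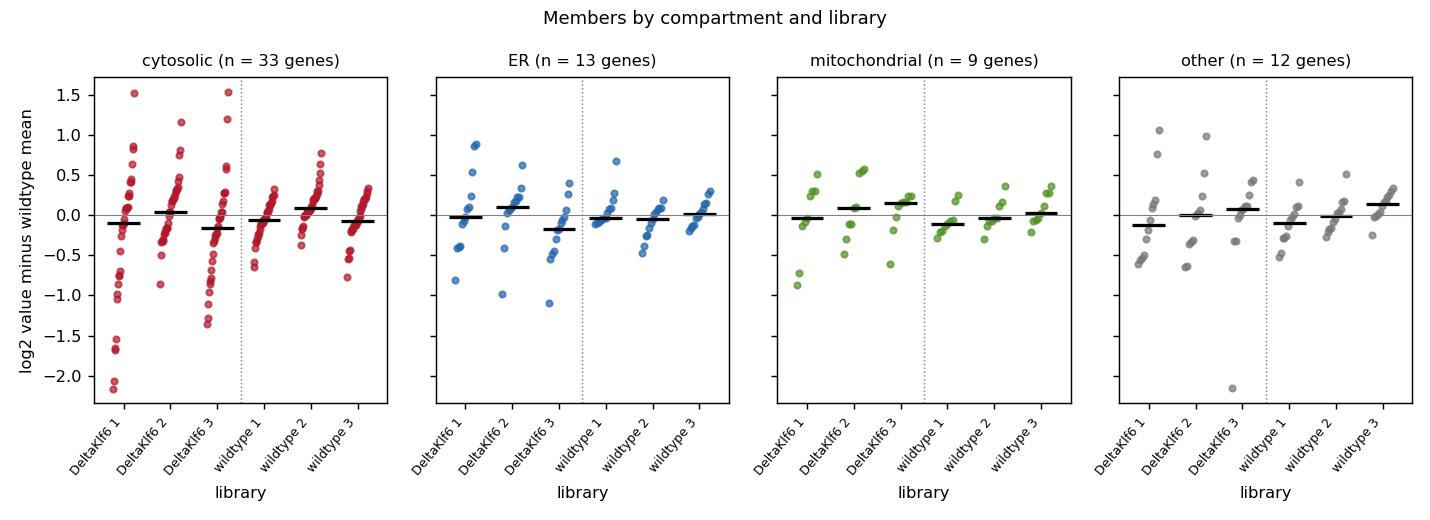
Each point is a gene's log2 value minus its wildtype mean, by library (3 DeltaKlf6, then 3 wildtype) and compartment; black bars are medians. Cytosolic genes span the widest range in the DeltaKlf6 libraries, with 4 genes of DeltaKlf6 1 over 1 log2 unit below every wildtype library, while the compartment medians lie between -0.17 and 0.15.

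Inducible cytosolic HSP70 was low in a single library, the one labelled DeltaKlf6 1. Hspa1b, the stress-inducible HSP70, was at 6.03, 7.77 and 8.04 in DeltaKlf6 and at 8.22, 8.15 and 7.92 in wildtype (log2 RMA values of libraries 1, 2 and 3, as in all lists below). The first DeltaKlf6 library was far below all others, and the third lay inside the wildtype range. The group difference was -0.81 (SE 0.49, 95% interval -1.95 to 0.32), and without the library labelled DeltaKlf6 1 it was -0.19. All 3 probe sets of Hspa1b were lowest in this library, the dimmer pair by a small margin (5.40, against 5.59 to 6.74 in wildtype, and 3.98, against 4.12 to 5.91). Hspa1a, its near-identical copy, was not analysed here, and a probe set of Hspa1b may bind transcripts of both.

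Hspa8, the constitutive HSP70 of the cytosol, was lowest in the same library with a smaller range. It was at 11.48, 12.26 and 12.09 in DeltaKlf6 and at 12.35, 12.22 and 12.09 in wildtype, a difference of -0.28 (SE 0.26, 95% interval -0.87 to 0.32). The groups overlap, with DeltaKlf6 1 alone clearly outside the wildtype values. Its 4 probe sets disagreed: the representative and another were lowest in DeltaKlf6 1, whereas the other pair were not, and the group difference ran from -0.28 to 0.55.

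The HSP110 proteins, which exchange nucleotide on HSP70, varied more. Hsph1 was at 7.02, 8.83 and 8.84 in DeltaKlf6 and at 8.89, 9.0 and 7.80 in wildtype. The low values here were DeltaKlf6 1 and wildtype 3, so the groups overlap, and the difference of -0.33 (SE 0.54) changed to 0.27 without DeltaKlf6 1. Hspa4l was at 4.30, 5.66 and 3.99 in DeltaKlf6 and at 5.57, 5.55 and 4.91 in wildtype (-0.69, SE 0.44). For this gene DeltaKlf6 1 and 3 were both below all wildtype libraries and DeltaKlf6 2 above them. Hspa4, named after its values were seen, was at 5.93, 8.31 and 7.87 in DeltaKlf6 and at 8.14, 8.22 and 7.92 in wildtype (-0.72, SE 0.56). Its next probe set did not show the low value, with 7.67, 7.96 and 6.71 in DeltaKlf6 and 7.41, 7.33 and 7.41 in wildtype.

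Further members of the HSP70 group moved little or the other way. Hspa12a, a divergent HSP70 relative, was at 3.32, 3.57 and 4.76 in DeltaKlf6 and at 3.17, 2.97 and 3.52 in wildtype (0.66, SE 0.38), with DeltaKlf6 3 alone well above the rest. Without probe sets shared between transcripts its difference was -0.03. Hspa14, a ribosome-associated HSP70 relative named after its values were seen, was at 7.99, 6.89 and 5.65 in DeltaKlf6 and at 6.25, 6.47 and 6.69 in wildtype. The DeltaKlf6 values spread to both sides of the wildtype range. Hspbp1, a nucleotide exchange factor, was at 6.01, 6.11 and 6.20 in DeltaKlf6 and at 5.78, 5.98 and 5.99 in wildtype (0.19, SE 0.20), groups that do not overlap but lie close. Over the 11 genes of this role 7 were lower by group mean and 4 higher, with a median of -0.27.

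**Figure D3:**
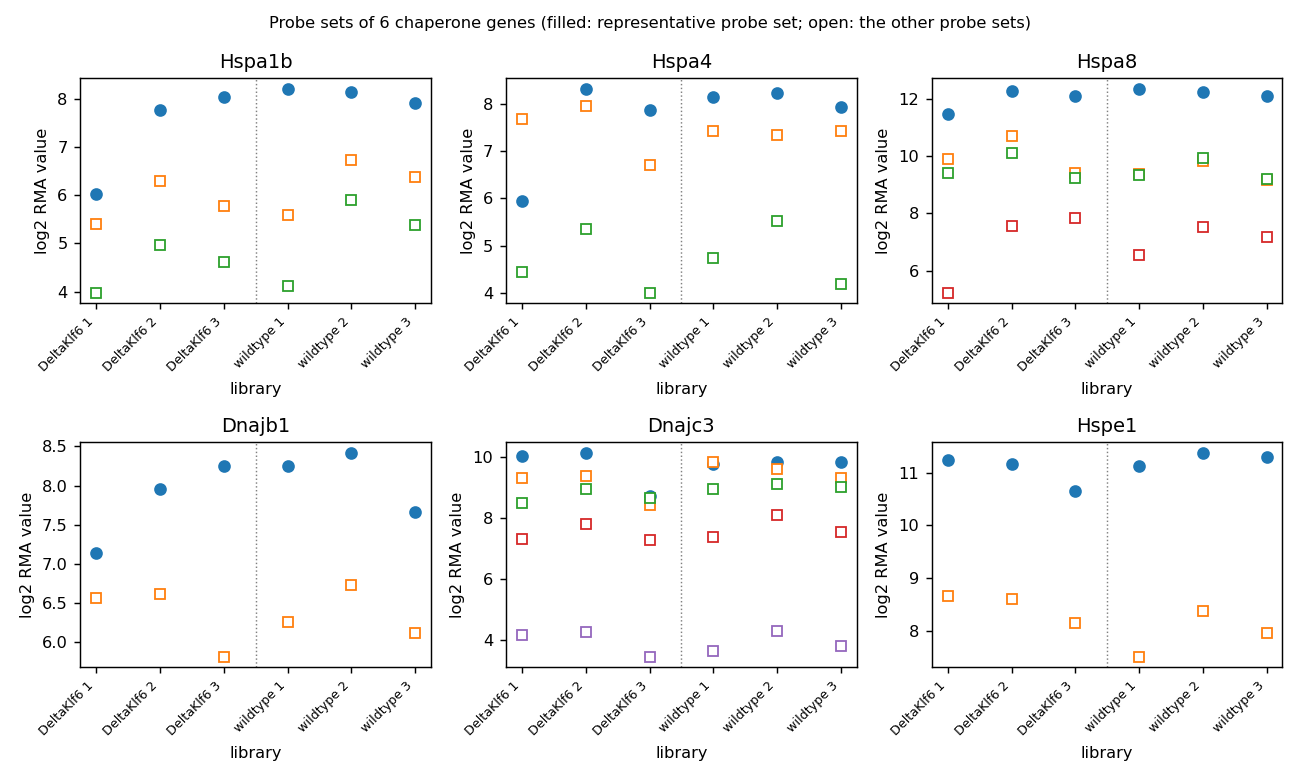
Log2 RMA values of every probe set of Hspa1b, Hspa4, Hspa8, Dnajb1, Dnajc3 and Hspe1 in the 3 DeltaKlf6 and 3 wildtype libraries (left and right of the dotted line); filled circles are the representative probe sets. For Hspa1b all 3 probe sets are lowest in DeltaKlf6 1, while for Hspa4 and Dnajb1 the representative alone is.

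Cytosolic J-domain proteins, the partners that bring clients to HSP70, had 12 of 15 genes lower by group mean and a median of -0.24. Over all genes 8819 of 17097 were lower. Of the lower J genes Dnaja2, Dnaja4, Dnajb5, Dnajb6 and Dnajc2 also had probe sets of the opposite sign. The direction of this group was not tested. Dnajb1, the main heat-inducible J protein, was at 7.13, 7.96 and 8.25 in DeltaKlf6 and at 8.26, 8.42 and 7.67 in wildtype (-0.33, SE 0.34). Here DeltaKlf6 1 was again the lowest library, and without it the difference was -0.01. Dnajb4, a close relative, was at 7.26, 8.13 and 7.68 in DeltaKlf6 and at 7.90, 8.06 and 7.91 in wildtype (-0.27, SE 0.26), with all 3 of its probe sets lowest in DeltaKlf6 1. Dnaja1, which serves HSP70 in general folding, was at 9.47, 10.10 and 9.97 in DeltaKlf6 and at 9.69, 10.19 and 9.88 in wildtype (-0.08, SE 0.25).

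Dnajb2, a J protein that also binds ubiquitin, had the smallest unadjusted p of the cytosolic genes (0.103; adjusted p = 0.992 by limma). It was at 6.67, 8.19 and 8.0 in DeltaKlf6 and at 8.50, 8.42 and 8.14 in wildtype. The difference was -0.73 (SE 0.40), and without DeltaKlf6 1 it was -0.25. Dnajc12, a co-chaperone of the aromatic amino acid hydroxylases, was at 6.65, 9.12 and 7.53 in DeltaKlf6 and at 8.05, 8.69 and 8.18 in wildtype, with DeltaKlf6 values both above and below the wildtype range. Dnaja2, a general HSP70 partner, was at 10.04, 9.82 and 9.91 in DeltaKlf6 and at 10.06, 10.15 and 10.27 in wildtype (-0.24, SE 0.20). Its groups do not overlap but nearly touch, and 1 of its 3 probe sets had the opposite sign. Dnajc12 and Dnaja2 were chosen after their values were seen.

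In all, 4 members lay over 1 log2 unit below the whole wildtype range in the library labelled DeltaKlf6 1: Hspa4, Hspa1b, Dnajb2 and Dnajc12. All 4 are among the 33 cytosolic members, where 2.22% of all genes, and 3.47% of those above the median level, lay as far below in that library. It was the lowest of the 6 for 11 of 33 cytosolic members (20.3% of all genes). The library labelled DeltaKlf6 2 had no member beyond 1 log2 unit on either side, where 0.538% of all genes lay below and 1.37% above. In DeltaKlf6 3 Dnajc3 and Dnajc13 lay below by that margin (3.24% of all genes) and Hspa12a above (1.48%). On the higher side of DeltaKlf6 1 stood Hspa14 (2.09%). With each wildtype library set against the other pair, Hsph1 in wildtype 3 was the single such case. Over all genes the shares were 0.567% below and 0.287% above in wildtype 1, 0.333% and 0.696% in wildtype 2, and 0.328% and 0.456% in wildtype 3.

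Hsp90aa1 and the small heat shock proteins showed no common direction. Hsp90ab1, the other listed HSP90 of the cytosol, was not analysed here. Hsp90aa1, the inducible HSP90 of the cytosol, was at 5.26, 5.97 and 3.53 in DeltaKlf6 and at 4.40, 5.05 and 4.98 in wildtype (0.11, SE 0.57). DeltaKlf6 1 and 2 lay above every wildtype library and DeltaKlf6 3 below, so that the difference was 0.81 without DeltaKlf6 3. Hspb1, which holds unfolded proteins in soluble form, was at 6.13, 6.46 and 4.76 in DeltaKlf6 and at 5.07, 6.49 and 5.59 in wildtype (0.07, SE 0.51). Here too DeltaKlf6 3 was the lowest library, with the other two inside the wildtype range.

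Hspb8, the small heat shock protein that works with Bag3 in selective autophagy, was at 10.72, 10.22 and 9.94 in DeltaKlf6 and at 9.56, 9.96 and 10.18 in wildtype (0.39, SE 0.28). Only DeltaKlf6 3 fell inside the wildtype range. A dimmer probe set of Hspb8 was at 6.35, 5.94 and 4.97 in DeltaKlf6 and at 4.22, 4.51 and 4.84 in wildtype, a difference of 1.23 with groups that do not overlap. The remaining probe set differed by -0.048. Bag3 itself was at 7.86, 7.56 and 7.38 in DeltaKlf6 and at 7.56, 7.60 and 7.32 in wildtype. Of the 6 small heat shock genes 3 were lower and 3 higher, and Hspb2, Hspb3, Hspb7 and Hspb9 had means under the median of all probe sets, so little can be read from them.

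Promoter sequence was at hand for 54 of the 67 genes (RefSeq, GRCm38.p6, 250 bases before to 50 after each start). The heat shock element, the site of heat shock factors, was searched as GAANNTTCNNGAA and as TTCNNGAANNTTC on the other strand. It was present in promoters of 3 members, Dnajb6, Hspe1 and Hsph1. By promoter it was present in 5 of 69 of the members (7.25%) and in 0.603% of all 32851. Dnajb6 and Hsph1 each count with more than a single start, and their overlapping windows hold the same site. In Hsph1 the element lay after the start site. The stretches before the start site are shown because they mark members that carry the full element in this window. No match was found for Hspa1b or Dnajb1. A gene without a match may be among the 13 members that had no promoter sequence. Capitals mark the fixed letters of the element.
Dnajb6 (chr5:29735822-29735894, plus strand): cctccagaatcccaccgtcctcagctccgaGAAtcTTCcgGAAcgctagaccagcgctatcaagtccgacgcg
Hspe1 (chr1:55088029-55088106, plus strand): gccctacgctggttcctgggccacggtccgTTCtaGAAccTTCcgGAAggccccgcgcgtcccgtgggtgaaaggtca

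Dnajb6, a J protein that keeps aggregation-prone proteins apart, was at 10.04, 9.63 and 9.80 in DeltaKlf6 and at 9.78, 9.93 and 10.16 in wildtype (-0.13, SE 0.22). Hspe1 is described with the mitochondrial genes. Neither was lowest in DeltaKlf6 1, unlike Hsph1. The GC box GGGCGG, searched on both strands, is a simple form of the site that KLF and SP factors bind. It was present in 40 of the 54 genes. By promoter it was present in 49 of the 69 of these genes (71%) and in 35.7% of all promoters. A match is a run of letters and not evidence of binding.

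By their brightest probe sets the ER chaperones split evenly in direction. Of 13 genes 7 were lower and 6 higher by group mean, with a median of -0.01, equal to that of all genes to this precision. With the probe sets of each gene averaged, the ER median was -0.14 and the cytosolic median -0.10, against 0.0008 over all genes. Hspa5 (BiP), the HSP70 of the ER and the most used readout of ER stress, was at 11.33, 11.42 and 11.46 in DeltaKlf6 and at 11.49, 11.44 and 11.26 in wildtype. Its difference of 0.01 (SE 0.20) had a 95% interval of -0.44 to 0.46, so shifts up to about that size in either direction remain compatible with the data. With 3 arrays a group larger shifts could also fail adjustment over all genes. Hsp90b1 (GRP94), the HSP90 of the ER, was at 10.46, 10.79 and 10.13 in DeltaKlf6 and at 10.60, 10.67 and 10.46 in wildtype (-0.11, SE 0.24). Its second probe set was at 6.49 in DeltaKlf6 3, against 8.67 to 8.83 in wildtype.

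The J proteins of the ER lumen departed from wildtype in different libraries. Dnajc3 (P58IPK), which also restrains eIF2alpha kinases, was at 10.04, 10.13 and 8.70 in DeltaKlf6 and at 9.75, 9.81 and 9.83 in wildtype (-0.17, SE 0.38). DeltaKlf6 1 and 2 were above all wildtype libraries and DeltaKlf6 3 over 1 log2 unit below them, and without DeltaKlf6 3 the difference was 0.29. The next brightest of its 5 probe sets was at 9.30, 9.38 and 8.43 in DeltaKlf6 and at 9.83, 9.58 and 9.31 in wildtype. There DeltaKlf6 1 and 2 were not above wildtype, while DeltaKlf6 3 was again the lowest library. Dnajb9 (ERdj4), a BiP partner in degradation and a target of the unfolded protein response, was at 10.32, 9.65 and 9.30 in DeltaKlf6 and at 9.76, 9.97 and 9.63 in wildtype (-0.03, SE 0.29), high in DeltaKlf6 1 and low in DeltaKlf6 3. Dnajb11 (ERdj3), which hands nascent secretory proteins to BiP, was at 9.72, 10.20 and 10.03 in DeltaKlf6 and at 10.04, 10.08 and 10.26 in wildtype (-0.14, SE 0.22), with DeltaKlf6 1 the lowest.

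Dnajc16 (ERdj8), an ER membrane J protein, was the only ER member below an unadjusted p of 0.05. It was at 4.72, 4.13 and 4.56 in DeltaKlf6 and at 5.30, 4.84 and 5.18 in wildtype, so every DeltaKlf6 library was below every wildtype library. The mean was 4.47 ± 0.31 in DeltaKlf6 and 5.11 ± 0.24 in wildtype (SD, n = 3 each). The difference was -0.64 (SE 0.25, 95% interval -1.20 to -0.07; unadjusted p = 0.0326, adjusted p = 0.992 by limma, lower in 3 of 3). It missed that limit after another quantile normalization, with arrays median-centred, with a variance trend and without DeltaKlf6 2, wildtype 1 or wildtype 3. Its second probe set was lower by group mean too (-0.37), but its groups overlapped, with 4.16, 4.81 and 3.77 in DeltaKlf6 and 4.30, 4.85 and 4.70 in wildtype. The other membrane J proteins by the rule for named genes were Dnajb12 (-0.32, SE 0.29) and Dnajc18 (0.24, SE 0.34). Hspa13, an HSP70 relative of microsomes, was at 8.48, 7.82 and 7.40 in DeltaKlf6 and at 7.55, 7.67 and 7.56 in wildtype (0.31, SE 0.29), high in DeltaKlf6 1 above all.

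The ER stress element, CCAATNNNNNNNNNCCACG or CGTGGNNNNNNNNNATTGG on the other strand, is the site through which the unfolded protein response raises ER chaperones. It was present in promoters of 3 members, all of the ER (Hspa5, Hsp90b1 and Dnajc3). By promoter it was present in 3 of 69 of the members (4.35%) and in 0.119% of all. The stretches are shown because they mark which chaperone genes carry the full element in this window, and the differences of these 3 genes were 0.01, -0.11 and -0.17. Capitals mark the fixed letters, and Hsp90b1 holds the element on both strands.
Hspa5 (chr2:34771995-34772073, plus strand): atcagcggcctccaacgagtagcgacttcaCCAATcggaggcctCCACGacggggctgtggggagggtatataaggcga
Hsp90b1 (chr10:86705503-86705686, minus strand): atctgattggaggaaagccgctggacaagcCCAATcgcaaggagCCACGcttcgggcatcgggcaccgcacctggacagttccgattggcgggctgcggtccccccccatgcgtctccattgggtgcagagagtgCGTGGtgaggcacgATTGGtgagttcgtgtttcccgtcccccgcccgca
Dnajc3 (chr14:118937797-118937875, plus strand): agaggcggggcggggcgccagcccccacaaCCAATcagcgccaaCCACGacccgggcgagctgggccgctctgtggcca

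**Figure D4:**
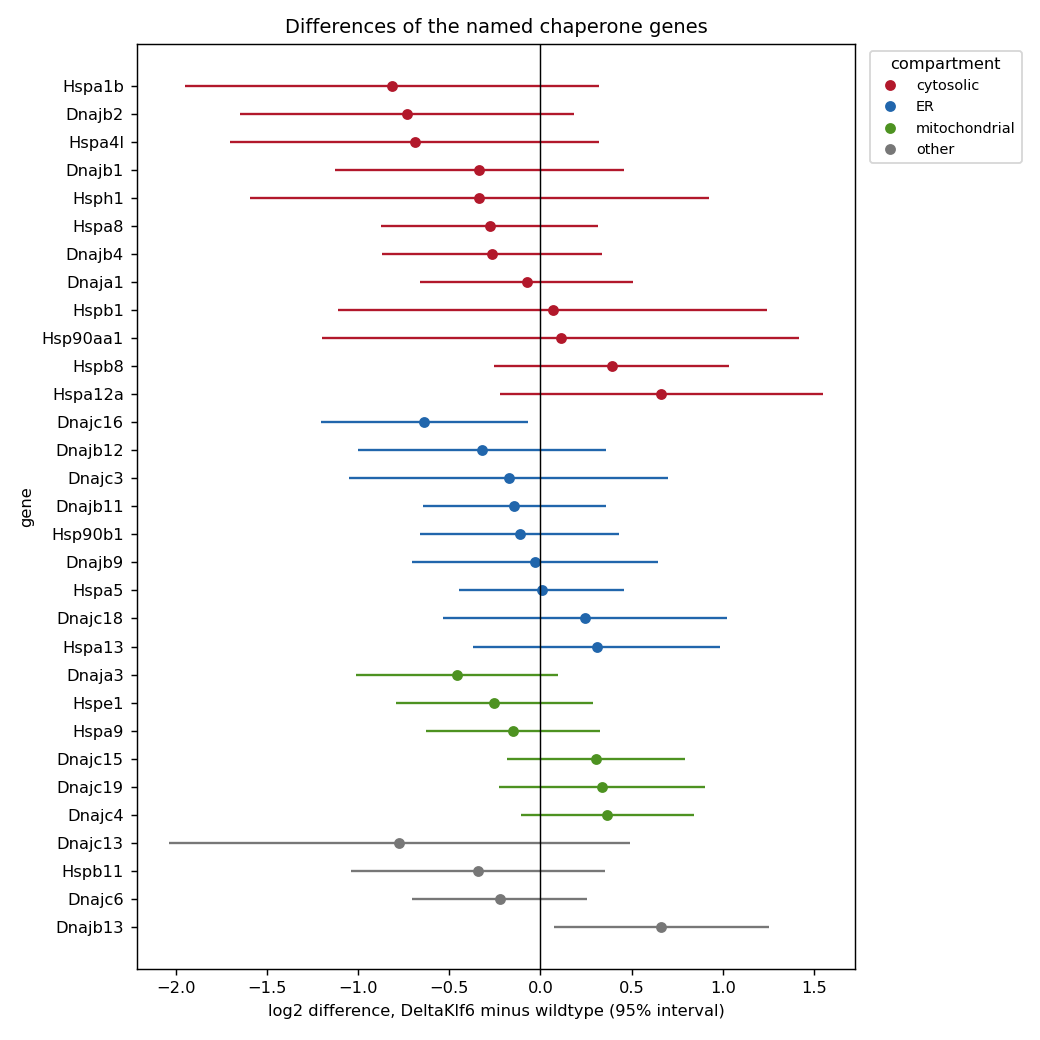
Log2 difference, DeltaKlf6 minus wildtype, with its 95% interval from limma for the 31 chaperone genes named by rule, by compartment (3 libraries a group). All intervals cross 0 except those of Dnajc16 (-1.20 to -0.07) and Dnajb13 (0.08 to 1.25), and neither gene passed adjustment.

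Mitochondrial chaperones had 4 of 9 genes lower and 5 higher by group mean, with a median of 0.06. No direction was common to them. Hspa9 (mortalin), the HSP70 of the matrix, was at 9.49, 9.33 and 9.60 in DeltaKlf6 and at 9.80, 9.48 and 9.58 in wildtype (-0.15, SE 0.21), and 1 of its 3 probe sets had the opposite sign (0.089). Dnaja3 (Tid1), its J partner, was at 8.23, 8.47 and 8.77 in DeltaKlf6 and at 8.75, 8.88 and 9.22 in wildtype (-0.46, SE 0.24, 95% interval -1.01 to 0.09). The groups overlap only narrowly, and the other 2 probe sets of Dnaja3, at much dimmer signal, were higher by 0.085 and 0.14.

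Hspe1, the lid of the mitochondrial chaperonin, was at 11.24, 11.17 and 10.66 in DeltaKlf6 and at 11.13, 11.38 and 11.30 in wildtype (-0.25, SE 0.23). DeltaKlf6 3 was the lowest library. Its second probe set had the opposite sign (0.52), with 8.65, 8.60 and 8.14 in DeltaKlf6 and 7.51, 8.38 and 7.96 in wildtype. Hspd1, the chaperonin itself, was not analysed here.

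The other mitochondrial J proteins lay on both sides. Dnajc4 was at 7.18, 7.45 and 7.11 in DeltaKlf6 and at 6.81, 6.84 and 6.99 in wildtype (0.37, SE 0.20, 95% interval -0.11 to 0.84), with no overlap of the groups. Dnajc15, which restrains respiratory complex I, was at 9.23, 9.50 and 9.13 in DeltaKlf6 and at 8.88, 9.14 and 8.93 in wildtype (0.30, SE 0.21). Dnajc19, of the protein import motor, was at 9.52, 9.76 and 9.38 in DeltaKlf6 and at 8.93, 9.57 and 9.14 in wildtype (0.34, SE 0.24). Both groups overlap for these genes, with 1 DeltaKlf6 library inside the wildtype range for Dnajc15 and 2 for Dnajc19. Dnajc28, whose role is less settled, was named after its values were seen. It was lowest in DeltaKlf6 1, at 4.88, 5.63 and 5.98 in DeltaKlf6 and at 5.99, 5.71 and 5.54 in wildtype (-0.25, SE 0.31). Its dimmer probe set had the opposite sign (1.09). A second, dimmer probe set of Dnajc19 ran the other way (-0.74), with 5.14, 5.71 and 5.51 in DeltaKlf6 and 6.03, 6.12 and 6.42 in wildtype, without overlap.

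Of the 12 members elsewhere in the cell 6 were lower and 6 higher, with a median of -0.06. Dnajb13, a J protein of the ciliary and sperm axoneme, was at 4.44, 3.91 and 3.80 in DeltaKlf6 and at 3.13, 3.42 and 3.62 in wildtype, with no overlap. The mean was 4.05 ± 0.34 in DeltaKlf6 and 3.39 ± 0.24 in wildtype (SD, n = 3 each), a difference of 0.66 (SE 0.25, 95% interval 0.08 to 1.25; unadjusted p = 0.0315, adjusted p = 0.992 by limma, higher in 3 of 3). It missed the unadjusted limit with the replicate number as a block and without DeltaKlf6 1, wildtype 1 or wildtype 2. These values lie near the median of all probe sets (3.33), and detection was not assessed. Testis markers averaged 2.70, 2.71 and 3.23 in DeltaKlf6 and 2.64 to 2.80 in wildtype, with 3 of 4 under that median, and their part in the result was not tested.

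Dnajc13 (RME-8), which acts with HSP70 on endosomes, was at 6.59, 6.79 and 4.62 in DeltaKlf6 and at 7.19, 6.60 and 6.53 in wildtype (-0.77, SE 0.55). The low value of DeltaKlf6 3 sets this difference, which was -0.08 without that library. Hspb11, a subunit of intraflagellar transport (-0.34, SE 0.30), and Dnajc6, the clathrin-uncoating protein auxilin (-0.22, SE 0.21), were under the median signal of all probe sets. Across all compartments 10 members had such low means.

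Probe sets of the same gene often disagreed. Of 41 members with several probe sets 13 had the same sign of difference in all of them and 28 had both signs. Of the 13, Hspa1b, Hspa4l, Hsp90b1, Dnaja1, Dnajb1, Dnajb4, Dnajc10, Dnajc16 and Dnajc21 were lower. Hspa14, Dnajc8, Dnajc17 and Dnajc27 were higher.

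Partners of these chaperones outside the Hsp and Dnaj families gave a like picture, with 0 past the adjusted threshold. Among 19 co-chaperones and regulators of heat shock transcription 8 were lower and 11 higher, with 1 at an unadjusted p under 0.05 (3.69% of all genes). This was Hsf2, heat shock factor 2, at 3.18, 4.17 and 3.52 in DeltaKlf6 and at 4.32, 4.49 and 4.24 in wildtype (-0.73, SE 0.28, unadjusted p = 0.0342, adjusted p = 0.992 by limma), with no overlap. Hsbp1, which binds heat shock factor 1, was at 8.89, 9.33 and 8.44 in DeltaKlf6 and at 7.66, 8.68 and 8.29 in wildtype (0.68, SE 0.34). Of the 8 genes of the CCT chaperonin, which folds actin and tubulin, 3 were lower and 5 higher, with Cct8 at 0.50 (SE 0.38) and Cct4 at 0.28 (SE 0.22).

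Of 17 ER partners and sensors 9 were lower and 8 higher, with a median of -0.01. Hyou1, the nucleotide exchange factor of BiP, was at 8.14, 8.91 and 8.99 in DeltaKlf6 and at 9.58, 9.03 and 9.09 in wildtype (-0.56, SE 0.30), without overlap. Serpinh1, the collagen chaperone, was at 8.15, 8.51 and 8.55 in DeltaKlf6 and at 7.88, 8.18 and 7.90 in wildtype (0.42, SE 0.22). Other targets of the unfolded protein response also lay on both sides, Creld2 at -0.54 (SE 0.32, with overlap) and Manf at 0.29 (SE 0.21, without overlap). Of 7 mitochondrial partners 6 were lower and 1 higher, with a median of -0.19, where 8819 of all 17097 genes were lower. Grpel2, an exchange factor for Hspa9, was at 6.94, 7.09 and 8.23 in DeltaKlf6 and at 8.06, 8.18 and 8.33 in wildtype (-0.77, SE 0.35). Atf5, a transcription factor of the mitochondrial stress response, was at 7.14, 9.11 and 8.13 in DeltaKlf6 and at 8.57, 9.13 and 9.20 in wildtype (-0.84, SE 0.47). Over the partner lists the groups did not overlap for Hsf2, Hyou1, Manf, Ptges3 (-0.15) and Grpel1 (-0.23), where 9.32% of all genes did not overlap.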

How the data were processed

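Total RNA of 6 livers was labelled with a 3' IVT Express kit and measured on 1-colour Affymetrix arrays, per the labels' protocols. RMA in Affymetrix Expression Console 1.2.1 gave the deposited log2 values, as the submitters' processing notes name it, and the base of the log was inferred from the range, 1.49 to 13.9. The genome build is not given in the sources used here. No column lacked a sample and no arrays were identical. All 67 members matched RefSeq by gene number.

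The genotypes were compared by limma 3.58.1 (lmFit, then eBayes, in R 4.3.3; genotype as factor, two-sided, Benjamini-Hochberg over 17097 genes, threshold 0.05), after the code was tested on simulated data. The number of arrays limits the precision, and the labels do not say whether animals share litters. Named genes are fixed core chaperones, the up to 4 members of smallest unadjusted p per compartment and up to 2 per partner list. Further members or partners given with values (Hspa4, Hspa14, Hspbp1, Dnaja2, Dnajb6, Dnajc12, Dnajc28, Bag3, Creld2, Manf, Ptges3 and Grpel1) were chosen after their values were seen. Dnajc7 is named only in a count. Dnaja4, Dnajb5, Dnajc2, Dnajc8, Dnajc10, Dnajc17, Dnajc21 and Dnajc27 are named only for the sign of their probe sets. Members and lists were chosen with earlier results of these data known. Means of 11 cell type marker lists were compared by library. Same-numbered libraries did not deviate together throughout (correlations -0.0049, 0.262 and 0.0837, against -0.1744 to 0.0858 for differently numbered ones). With 3 arrays a group this cannot decide whether the numbers pair animals, and the labels do not say. The alternatives are in the closing section.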

Additional observations from a re-analysis of the deposited data

How the results depend on the processing

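No gene passed the adjusted threshold under any of the 14 alternatives run. Of 39 named genes 26 kept their sign in all of them. The count of all genes at an unadjusted p under 0.05 was 631, and 404 with dim genes left out, where fewer were tested, and 379 to 1546 on leaving out a library. The count of chaperone genes there was 2, and 1 with arrays median-centred, with a variance trend (Dnajb13 in both) and with the replicate number as a block (Dnajc16), and 0 to 8 on leaving out a library. Another quantile normalization also gave 2, with Dnajc4 in place of Dnajc16. With the replicate block 703 of all genes were at an unadjusted p under 0.05, against 631 in the main fit. The labels do not say whether the numbers pair the animals. The cytosolic median was -0.13, and -0.24 with dim genes left out. The mitochondrial median was 0.06, and 0.24 without shared probe sets. The ER median was -0.01, and -0.14 with the probe sets of each gene averaged. The causes were not tested. On leaving out a library the medians spanned -0.20 to -0.09 (cytosolic), -0.06 to 0.07 (ER) and -0.087 to 0.24 (mitochondrial).

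Signs changed on averaging all probe sets of a gene for Hspa8 (0.036), Hspa5 (-0.025), Hspe1 (0.13), Dnajc18 (-0.049) and Cct4 (-0.27), and without shared probe sets for Hspa8 (0.086), Hspe1 (0.52) and Hspa12a (-0.033). Quantile normalization gave -0.094 for Hspa5, and array weights gave 0.070 for Dnajb9 and 0.053 for Dnajc3. On leaving out a library the ranges that cross 0 were those of Hsph1 (-0.72 to 0.27), Hsp90aa1 (-0.41 to 0.81), Hspb1 (-0.27 to 0.58), Dnaja1 (-0.20 to 0.11), Hspa5 (-0.059 to 0.054), Hsp90b1 (-0.28 to 0.053), Dnajb9 (-0.31 to 0.20), Dnajc3 (-0.43 to 0.29) and Dnajc18 (-0.062 to 0.52). The cause was not tested. With 3 arrays a group only large differences could pass, and members near the array median are limited by signal over background.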
